A study of Mus musculus with 62 samples.

Results

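H3.3, the histone H3 variant that is placed on DNA outside of replication, was compared between Daxx-KO and wild-type (WT) haematopoietic stem and progenitor cells (HSPCs) at 3 weeks post induction (w.p.i.). The data are the deposited table of H3.3 regions that differed between 2 Daxx-KO and 2 WT libraries, and all 141512 autosomal sites among its 145427 sites were taken. These 4 libraries are part of a series of 62 samples. The Daxx-KO mice were Daxx F/F Cre +/- and the WT mice Daxx +/+ Cre +/-, all of strain C57BL/6, so that both groups carried Mx1Cre. Mx1Cre is driven by an interferon-responsive promoter and was switched on with pI:pC, a mimic of double-stranded RNA, and the deletion is therefore not limited to HSPCs. The labels give no age or sex for these animals, and WT replicate 1 carries no mouse number, unlike the other 3 libraries. HSPCs were bone-marrow cells enriched magnetically as Lineage-negative and c-Kit-positive, and H3.3 was mapped by CUT&Tag, in which an antibody directs a transposase to cut and tag the DNA around the bound protein. A deleted Daxx gene could not be checked from H3.3, since no listed site covered the floxed exons, and cell-type markers could not be checked because the table holds chromatin regions that differ and no expression.

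Daxx is a chaperone that carries H3.3 and, together with the chromatin remodeller Atrx, is known for placing it in silent and repeated DNA such as telomeres, pericentromeric satellites and endogenous retroviruses. The other main H3.3 chaperone, Hira, serves active genes and promoters. H3.3 at promoters and enhancers turns over quickly, whereas H3.3 in heterochromatin accompanies H3K9 trimethylation (H3K9me3).

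Levels are given below as normalised counts, that is reads over a site divided by a constant for each library, in the order replicate 1 and replicate 2. A site was called gained where the lower Daxx-KO library exceeded the higher WT library, and lost in the reverse case. Since every listed site had already been selected as differing, 57.7% of sites were gained and 40.7% lost by this rule, and these shares are the background for all counts of sites that follow. With 2 libraries against 2 an exact two-sided permutation test cannot give a p below 0.333, so that test could pass no single site, and values of each library are given. Shares carry a 95% Wilson interval, which covers counting error alone.

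Daxx-KO HSPCs gained H3.3 at 81712 sites and lost it at 57563, and 2237 sites had no single direction. The gains fell together in 3 places: sequence that recurs in the genome, including telomere repeats and satellites, GC-rich sequence, and the first bases downstream of transcription start sites (TSSs). In the most recurring sequence WT replicate 1 was so low that few losses could be called, as described below. The share of losses was higher in single-copy, AT-rich, distal DNA and in long genes. Median levels at gained sites were 60.8 and 58.2 in Daxx-KO against 25.9 and 15.7 in WT. At lost sites they were 12.6 and 18.4 in Daxx-KO against 55.4 and 55 in WT. Losses were the deeper changes: on the log2 scale with a pseudocount of 1, the groups were at least 1 apart, from the nearest library of each, at 62.5% of lost and 38.3% of gained sites. Where that gap had to be 2-fold on the values themselves, gains no longer outnumbered losses, with 33679 gained and 37152 lost sites, and gains made up 47.5% of sites with a direction instead of 58.7%.

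Depth differed between libraries. The mean reads in a window were 9.43 and 11.27 in Daxx-KO against 22.88 and 3.06 in WT, and the constants were 1.27, 1.36, 1.43 and 0.38. After division by them the average window of the genome held 16.0 in WT replicate 1 and from 7.43 to 8.29 in the other libraries. WT replicate 2, the shallowest library, was at 0 at 15.9% of gained sites. WT replicate 1 stood apart in recurring sequence, as described below, and results that rest on it are given against each WT library separately. Scaling by the mean reads per window in place of the constants raised the share of gains to 64.8%.

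Some of the sequences behind these patterns are shown here, read from the mm10 reference genome on the + strand unless stated.

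The first pair shows successive units of a tandem repeat at the start of chromosome 9, at chr9:3014001-3014234 and chr9:3014235-3014468. Each unit is 234 bases long. Capitals in the second unit mark the 10 bases that differ from the first.
chromosome 9 unit 1: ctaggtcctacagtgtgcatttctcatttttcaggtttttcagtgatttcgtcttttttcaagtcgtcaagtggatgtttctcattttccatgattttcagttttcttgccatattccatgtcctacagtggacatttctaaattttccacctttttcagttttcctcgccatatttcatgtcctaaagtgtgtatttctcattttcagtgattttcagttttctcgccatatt
chromosome 9 unit 2: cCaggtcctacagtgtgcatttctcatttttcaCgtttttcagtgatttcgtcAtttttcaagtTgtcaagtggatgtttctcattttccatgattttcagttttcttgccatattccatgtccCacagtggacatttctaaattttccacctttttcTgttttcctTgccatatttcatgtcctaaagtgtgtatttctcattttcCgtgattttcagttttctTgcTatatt

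RefSeq promoters of Kit and Cd34, from 250 bases before to 50 after the start, are shown because these HSPC surface-protein genes moved in opposite directions. They lie at chr5:75574737-75575036 and chr1:194938571-194938870 (mm10, both + strand). Capitals mark CG dinucleotides, of which Kit holds 20 and Cd34 holds 7. The GC content is 69.0% in Kit and 50.0% in Cd34.
Kit promoter: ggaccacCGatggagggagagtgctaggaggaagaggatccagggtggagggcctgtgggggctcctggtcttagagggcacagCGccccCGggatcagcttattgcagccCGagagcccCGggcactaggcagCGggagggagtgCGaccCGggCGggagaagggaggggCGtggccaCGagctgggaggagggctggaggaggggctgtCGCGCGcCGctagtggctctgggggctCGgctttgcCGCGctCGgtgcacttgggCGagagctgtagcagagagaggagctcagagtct
Cd34 promoter: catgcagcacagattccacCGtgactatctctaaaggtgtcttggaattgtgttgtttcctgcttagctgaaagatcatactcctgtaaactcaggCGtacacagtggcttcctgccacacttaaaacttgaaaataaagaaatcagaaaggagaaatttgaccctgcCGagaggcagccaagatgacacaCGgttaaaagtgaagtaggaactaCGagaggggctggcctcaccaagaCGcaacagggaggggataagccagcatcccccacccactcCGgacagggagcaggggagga

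The last pair contrasts the middle of a complete loss in an intron of Esrrg, an orphan nuclear receptor gene, at chr1:187982806-187983045, with the middle of a gain in fully repeat-masked DNA near Zfr at chr15:12099041-12099160. Their GC contents are 42.9% and 73.3%. Capitals again mark CG dinucleotides, and the Zfr stretch holds none.
Esrrg intron, lost: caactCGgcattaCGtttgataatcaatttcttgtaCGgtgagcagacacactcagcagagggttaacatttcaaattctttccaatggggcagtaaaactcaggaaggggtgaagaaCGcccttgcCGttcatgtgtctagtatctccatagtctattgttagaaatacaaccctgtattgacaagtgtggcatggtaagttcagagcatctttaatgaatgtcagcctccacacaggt
near Zfr, gained: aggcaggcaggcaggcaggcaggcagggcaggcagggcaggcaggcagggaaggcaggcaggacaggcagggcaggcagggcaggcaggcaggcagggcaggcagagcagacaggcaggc

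Among listed sites, the share of H3.3 gains rose with the share of sequence that occurs more than once in the genome. Each site was sampled with 32-base words (32-mers) every 50 bases, and a 32-mer was counted as recurring if the reference holds it more than once. Among the 84570 sites without a recurring 32-mer, gains and losses were balanced, with 41566 gained and 41606 lost. The share of gains was 61.2% where up to 10% of 32-mers recurred, 67.9% between 10% and 50%, and 87.2% between 50% and 90%. At the 5738 sites where at least 90% recurred, 5622 were gained and 33 lost, or 99.4% (95% interval 99.2 to 99.6). The median of WT replicate 1 was 2.80 there, and a loss requires both Daxx-KO libraries to lie below that library. The sites were also selected as differing with that library included. Few losses could therefore be called in this bin, and its share describes the listed sites without testing a direction.

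**Figure D1:**
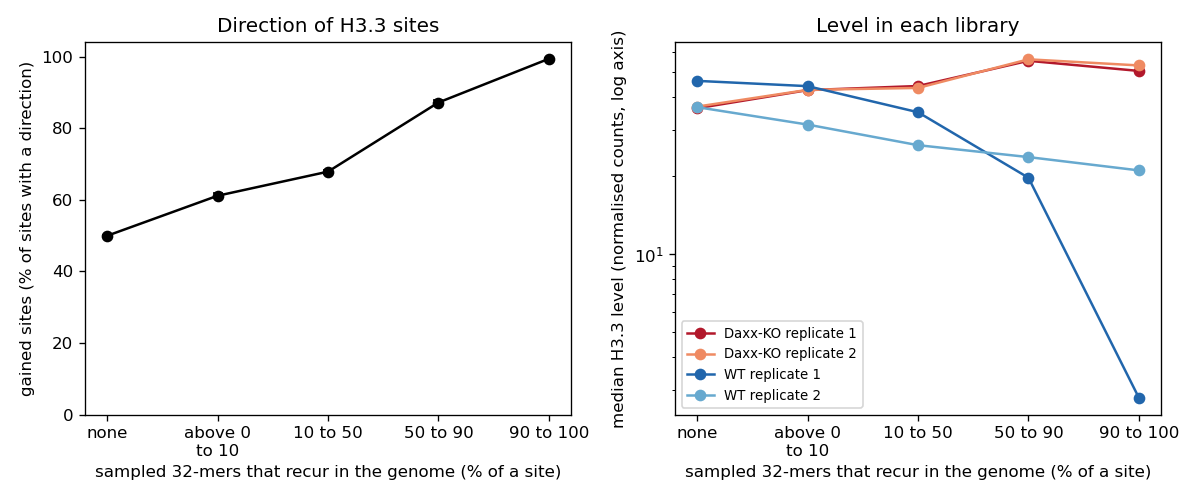
Left, share of gained sites among sites with a direction by the percentage of sampled 32-mers that recur in the genome, with 95% Wilson intervals. Right, median H3.3 level of each library in the same bins on a log axis. The share rises from 50.0% to 99.4%, while the median falls to 2.80 in WT replicate 1 and to 20.95 in WT replicate 2 and lies at 50.5 and 53.1 in Daxx-KO. In the highest bin the low level of WT replicate 1 left little room to call a loss.

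The size of this gain depended on the WT library. At sites with at least 90% recurring 32-mers the median levels were 50.5 and 53.1 in Daxx-KO, 2.80 in WT replicate 1 and 20.95 in WT replicate 2. The median log2 ratio of the Daxx-KO mean to WT was 4.25 against replicate 1 and 1.36 against replicate 2. WT replicate 1 was at 0 at 38.8% of these sites and WT replicate 2 at 3.85%. A site with either WT library at 0 could not be called lost. The WT libraries differed from each other by over 4-fold at 61.4% of them, and the Daxx-KO libraries at 0.105%. In sites without a recurring 32-mer WT replicate 1 was at 0 at 0.0024%. How far the handling of reads that map to several places sets these levels was not tested.

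Repeat-masked sequence showed the same order in a weaker form. Gains were 53.4% of sites with a direction where under 10% of bases were masked, 64.9% between 50% and 75%, and 88.8% where at least 90% were masked. In this last class the median of WT replicate 1 was 9.11, which again limited the losses that could be called. The classes of repeat were not analysed here.

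Telomere repeats were among the places with the highest H3.3. TTAGGG or CCCTAA occurred at least 10 times in 172 sites, of which 152 were gained and 18 lost. Without WT replicate 1 the counts were 152 and 19. Leaving out a library only loosens the rule for a direction, so here and below such counts could not fall. Of these sites 155 lay over 1 Mb from the end of the chromosome, and 136 of those were gained. The median over the 172 sites was 304 and 368 in Daxx-KO, 46.3 in WT replicate 1 and 93.0 in WT replicate 2. In the shorter form of 2 repeats in a row, the telomere motif on either strand occurred in 0.209% of gained and 0.0869% of lost sites, and in 0.0302% of all 600-bp tiles of the autosomes.

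On 13 of the 19 autosomes the last listed site held at least 10 telomere repeats, and all 13 were gained. They cover the last sequenced base of the assembly, next to the unsequenced chromosome end. Levels ran from 861 to 75366 in Daxx-KO replicate 1, from 964 to 60103 in replicate 2, from 17.5 to 283 in WT replicate 1 and from 456 to 12515 in WT replicate 2. At the end of chromosome 14, where the level was highest, they were 75366 and 60103 in Daxx-KO against 45.6 and 12515 in WT. Every Daxx-KO value exceeded both WT values, but the WT libraries lay far from each other. The Daxx-KO mean was 1.72 to 5.41 times WT replicate 2, with a median of 2.76, and 26.7 to 1486 times WT replicate 1.

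**Figure D2:**
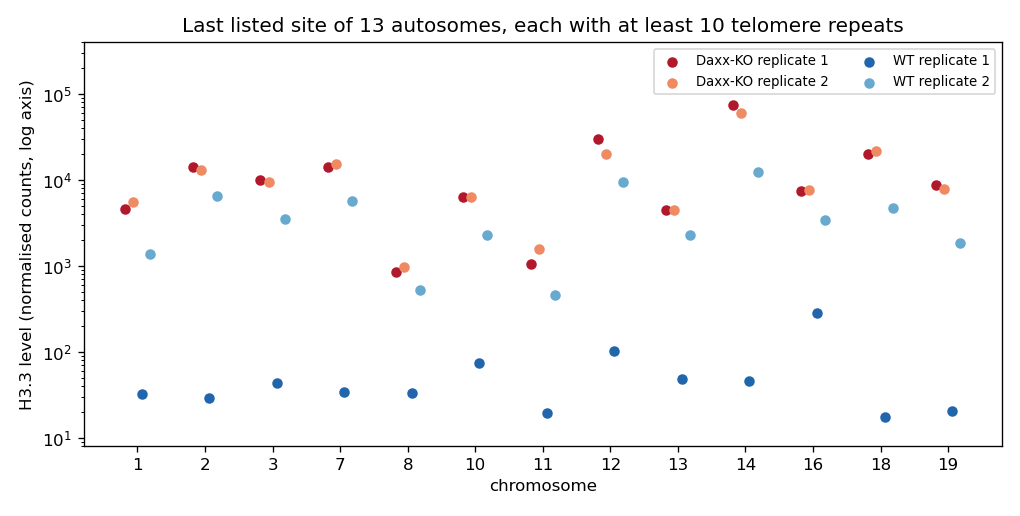
H3.3 level (normalised counts, log axis) in each of the 4 libraries at the last listed site of 13 autosomes, each with at least 10 telomere repeats. Daxx-KO points lie between 861 and 75366, WT replicate 2 between 456 and 12515, and WT replicate 1 between 17.5 and 283.

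Inside chromosomes some telomere-repeat sites were low in both WT libraries. A site in an intron of Nalcn, a sodium leak channel gene, had 2829 and 1979 in Daxx-KO against 35.8 and 41.9 in WT. Of its 32-mers 4.17% recurred. At the same coordinates Pu.1, the myeloid transcription factor encoded by Spi1, had 3203 and 4628 in Daxx-KO against 64.8 and 6.39 in WT. Not every such site rose. A site with 26 repeats at the Phf21a promoter was lost, with 231 and 209 in Daxx-KO against 255 and 1551 in WT, and one with 34 repeats near Adgre5 had no direction, with 6530 and 6362 in Daxx-KO against 203 and 8251 in WT.

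Satellite and tandem-repeat blocks followed. At the start of chromosome 9, between 2999501 and 3038550, all 12 sites that reached 1000 normalised counts were gained. Their levels were 2849 to 44030 and 2410 to 33452 in Daxx-KO, 191 to 4691 in WT replicate 1 and 1323 to 9427 in WT replicate 2. This is the block whose 234-base units are printed above. On chromosome 8, in a tandem block between 123500051 and 123649250, 32 of 33 sites were gained, with medians of 160 and 133 in Daxx-KO against 15.4 and 36.7 in WT. Neither block was among the places fixed beforehand, so the counts of both are a description only.

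In all, 145 sites reached 1000 in any library, of which 121 were gained, 7 lost and 17 without direction. A site could enter this set through its Daxx-KO level alone, so the split is a description and not a result about high levels. Without WT replicate 1 the counts were 132 and 11. The highest loss was an intronic site in Chl1, a neural adhesion gene, with 9798 and 5613 in Daxx-KO against 91711 and 49672 in WT. The sites of Chl1, Ahnak2, Duxf3, Phf21a and Adgre5 were chosen after their values were seen. A site at Ahnak2, a giant scaffold-protein gene, gained H3.3 with 1522 and 1662 against 67.3 and 233, while its H3K9me3 was 69.8 and 117 in Daxx-KO against 1789 and 1950 in WT. At Duxf3, a copy of the Dux homeobox gene of early embryos, H3.3 was 2070 and 2464 against 690 and 1299, and H3K9me3 was 1197 and 1002 against 3182 and 3359.

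Near the centromeric ends the share of gains was also above the background. In the first 200 kb of sequence of each autosome 207 sites were gained and 66 lost, or 75.8% (70.4 to 80.5). In the last 200 kb it was 61.1%, and at all sites more than 1 Mb from either end 58.6%. The median site in the first 200 kb had 50.0% recurring 32-mers and the median site in the interior none.

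Base composition ordered the sites in single-copy DNA. Among sites without a recurring 32-mer the share of gains was 20.4% below 40% GC, 22.4% at 40 to 45%, 37.0% at 45 to 50%, 62.5% at 50 to 55%, 85.9% at 55 to 60% and 94.99% at 60% or more. Ratios to each WT library are given for their size only. A call already places both Daxx-KO libraries beyond both WT libraries, so their shared sign is no separate support. Below 40% GC the median log2 ratio of Daxx-KO to WT was -2.53 against replicate 1 and -2.46 against replicate 2, and at 60% or more it was 1.22 and 2.07. In the same bins the Daxx-KO medians went from 7.90 and 8.84 to 69.5 and 74.4, and the WT medians from 48.4 and 41.9 to 33.7 and 18.3. The Daxx-KO medians thus rose with GC content and the WT medians fell. Whether the amplification of the libraries took part in the trend was not tested.

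Promoters, here sites within 1 kb of the start of any annotated transcript, gained H3.3 more often than introns and intergenic DNA, but not detectably more often than exons. In single-copy DNA 10890 promoter sites were gained and 4454 lost, or 70.97% gained (70.2 to 71.7). The share was 70.5% (69.3 to 71.7) in exons, 46.3% in introns and 37.9% between genes. All distal sites together stood at 45.2% (44.9 to 45.6). The difference from promoters narrowed at equal GC. Below 45% GC 31.4% of promoter and 21.5% of distal sites were gained, at 50 to 55% the shares were 68.0% and 61.3%, and at 55 to 60% they were 86.2% and 85.8%, whose intervals overlap. At 60% or more the distal share was the higher, 96.3% against 94.7%, with intervals that overlap.

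**Figure D3:**
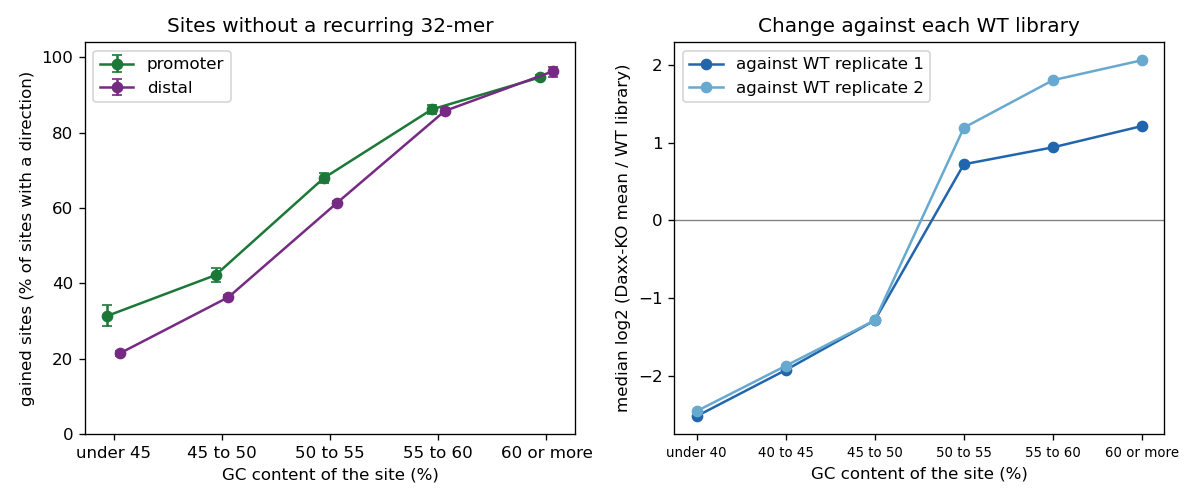
Sites without a recurring 32-mer. Left, share of gained sites by GC content for promoter and distal sites, with 95% Wilson intervals. Right, median log2 ratio of the Daxx-KO mean to each WT library by GC content. The promoter share rises from 31.4% to 94.7% and the distal share from 21.5% to 96.3%. The ratio crosses 0 between 45 to 50% and 50 to 55% GC for both WT libraries, as the rule for a direction requires.

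Around TSSs of protein-coding genes the gains peaked just downstream. Between the TSS and 500 bp downstream 3276 sites were gained and 531 lost, or 86.1%. The share was 77.8% in the 500 bp upstream, 63.6% between 500 bp and 1 kb upstream, and 75.1% between 500 bp and 1 kb downstream. From 3 to 10 kb it was higher downstream than upstream, with 69.1% against 66.1% between 5 and 10 kb. Between 50 and 100 kb it was 48.8% upstream and 51.3% downstream. Median GC content followed, at 59.8% in the first 500 bp downstream and 47.8% between 50 and 100 kb upstream.

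**Figure D4:**
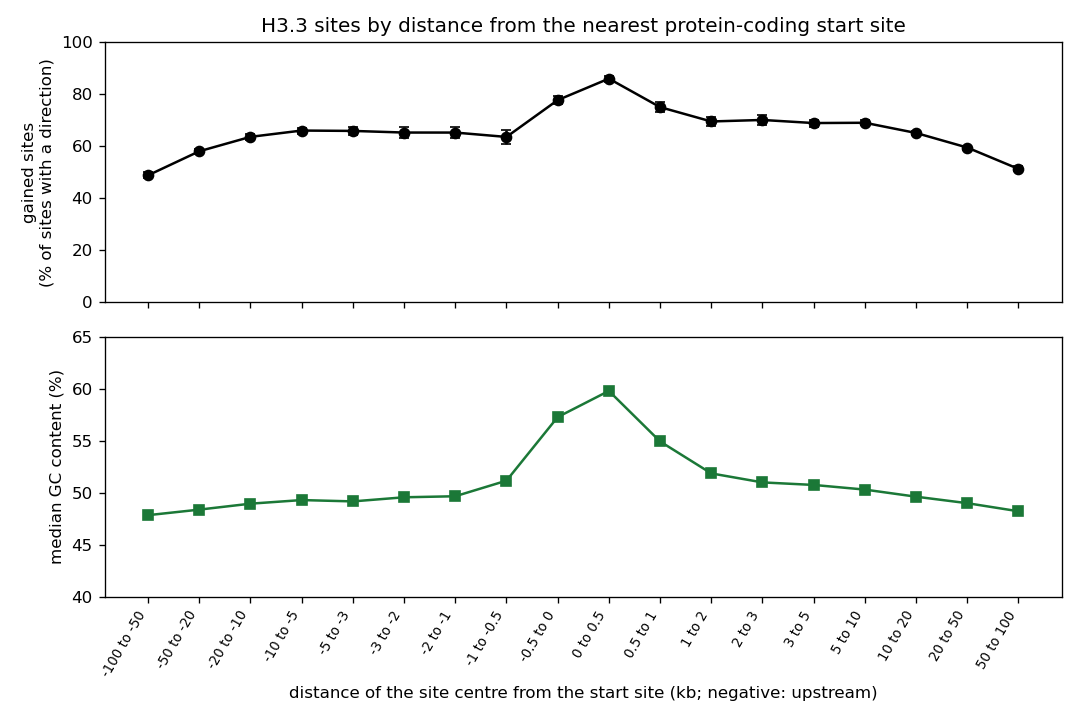
Top, share of gained sites among sites with a direction by distance of the site centre from the nearest protein-coding start site, with 95% Wilson intervals; negative distances are upstream. Bottom, median GC content of the same sites, on an axis that does not start at 0. Both curves peak in the first 500 bp downstream, at 86.1% gained and 59.8% GC.

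Long sites were gained more often than short ones. Of sites of 600 bp, the shortest the table can hold, 54.1% of those with a direction were gained, while it was 92.1% between 2 and 3 kb and 96.8% above 3 kb. Median GC content in these classes was 48.8%, 54.9% and 56.5%, and the median masked share 14.7%, 16.3% and 70.4%. Length was not separated from either.

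At the level of genes, 6494 of 20807 autosomal protein-coding genes had a gained and no lost promoter site, which is 31.2%. A lost and no gained site was found at 1620, or 7.79%, and both at 876, or 4.21%. In single-copy sites alone the shares were 24.9%, 6.79% and 3.10%. The lists below were compared with these shares by counts, without a test. Promoter sites of Vpreb1, Csf2rb, Actb and Myd88 held from 33.3% to 61.5% recurring 32-mers, so their reads may be shared with near copies.

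Of 25 regulators of HSPCs, 13 had a gained promoter site only and 1 a lost one only. Fli1, an ETS factor of stem cells and megakaryocytes, had 77.4 and 104.6 in Daxx-KO against 25.2 and 23.6 in WT. Erg, its close relative, had 130 and 108 against 40.7 and 5.24. Kit, the receptor for stem cell factor by which these cells were enriched, had 101.1 and 107.6 against 48.4 and 52.4, and was added to the named genes after its values were seen. The only loss was at Cd34, a sialomucin of progenitors, with 28.4 and 19.9 in Daxx-KO against 72.9 and 60.2 in WT. Gains further included Runx1, Gata2, Myb, Hlf, Prdm16 and Hoxa9. With a 2-fold gap 3 genes of the list, or 12%, were gained only, which is below the 15.4% of all genes at that gap, so that the higher share of gains in this list depended on small gaps.

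Myeloid genes went both ways. Of 22 regulators and receptors 7 were gained only, near the share of all genes, 5 lost only and 2 both. The lost share was 22.7%, where all genes had 7.79% and the housekeeping genes used as a comparison 22.2%. Among the gains, Irf8, needed for monocytes and dendritic cells, had 39.5 and 48.6 against 15.4 and 0, Klf4 had 74.2 and 54.5 against 21.7 and 15.7, and Cebpe, a factor of late granulocytes, had 33.2 and 56.0 against 15.4 and 15.7. The genes lost only were Csf1r, Csf2rb, Fos, Spi1 and Clec12a. Csf1r, the M-CSF receptor, had 0 and 12.5 against 71.5 and 55. Csf2rb, the shared beta chain for GM-CSF, IL-3 and IL-5, had 21.3 and 11.8 against 51.2 and 78.6. Fos, an immediate-early factor, had 20.5 and 29.5 against 57.5 and 91.7. Spi1 itself was lost at its promoter, but by a narrow margin: 1.58 and 53.1 in Daxx-KO against 75.7 and 60.2 in WT.

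Neutrophil granule genes were gained only in 5, lost only in 3 and both in 1 of 16, so that their gains stood at the share of all genes. The lost share was 18.75%, where all genes had 7.79% and housekeeping genes 22.2%. With promoters of 250 bp 2 were gained only. Mpo, the peroxidase of primary granules, had 171 and 161 in Daxx-KO against 68.7 and 39.3 in WT. Ltf, lactoferrin of secondary granules, had 66.3 and 77.4 against 27.3 and 10.5. Ctsg, cathepsin G, was lost with 0 and 13.3 against 61.7 and 49.8, and S100a8, a calprotectin subunit, with 14.2 and 47.2 against 105.2 and 212.

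Erythroid and megakaryocyte genes had 7 gains and no loss among 18, and T-cell genes 4 gains, no gene with a loss only and 1 with both among 15. The gained shares were 38.9% and 26.7%, where all genes had 31.2%. The gene with both was Gata3, a T-cell factor, whose site of widest gap was lost, with 20.5 and 19.9 against 51.9 and 65.5. With a 2-fold gap 2 erythroid and 3 T-cell genes were gained only, or 11.1% and 20.0%, where all genes had 15.4%. With promoters of 3 kb 2 genes of each list were lost only. Klf1, the master factor of erythroid genes, had 85.3 and 117 against 28.8 and 41.9. Of 23 B-cell and lymphoid genes 5 were gained, 2 lost and 2 both, so that 21.7% were gained only and 8.70% lost only. The 2 losses were the surrogate light chain genes Vpreb1, with 10.3 and 23.6 against 44.9 and 49.8, and Igll1, with 17.4 and 22.1 against 47.7 and 41.9. Ikzf1, the Ikaros gene, was gained with 69.5 and 165 against 35.1 and 7.86.

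Nucleic-acid sensors had 8 gains, no loss and 1 gene with both among 16. The gained share was 50.0%, where all genes had 31.2%. Irf3, the factor that sensors activate, had 194 and 161 in Daxx-KO against 50.5 and 10.5 in WT. Dhx58, which encodes LGP2, had 129 and 125 against 40.7 and 13.1. Myd88, the adaptor of Toll-like receptors, had 37.1 and 36.9 against 18.9 and 10.5. Gains also lay at Ifih1, Mavs, Tlr9, Adar and Tmem173, the STING gene. Interferon-stimulated genes had 7 gains, 2 losses and 1 gene with both, Mx1, among 27. The gained and lost shares, 25.9% and 7.41%, were not above the 31.2% and 7.79% of all genes. Across alternatives the gains of this list ran from 0 to 9 and its losses from 1 to 7, the highest with promoters of 3 kb. Irf7 had 105.8 and 105.4 against 56.8 and 41.9, and the lost Isg20, an exonuclease gene, 22.1 and 24.3 against 70.1 and 136. With a 2-fold gap no interferon-stimulated gene was gained only and 2 were lost only, while 3 nucleic-acid sensors were gained only and 1 lost only, where 15.4% and 5.75% of all genes were.

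Inflammatory genes had 7 gains and 2 losses among 21, or 33.3% and 9.52%, near the 31.2% and 7.79% of all genes. With a 2-fold gap 14.3% were gained only, where 15.4% of all genes were. Tnf had 37.9 and 59.7 in Daxx-KO against 8.41 and 0 in WT, and Ccl5, a chemokine gene, 95.6 and 119 against 32.95 and 2.62. Nfkb1, which encodes the p105 and p50 subunit of NF-kappaB, was lost with 0 and 2.95 against 70.1 and 39.3. Il1r1, the IL-1 receptor, was lost with 18.95 and 12.5 against 63.8 and 52.4.

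**Figure D5:**
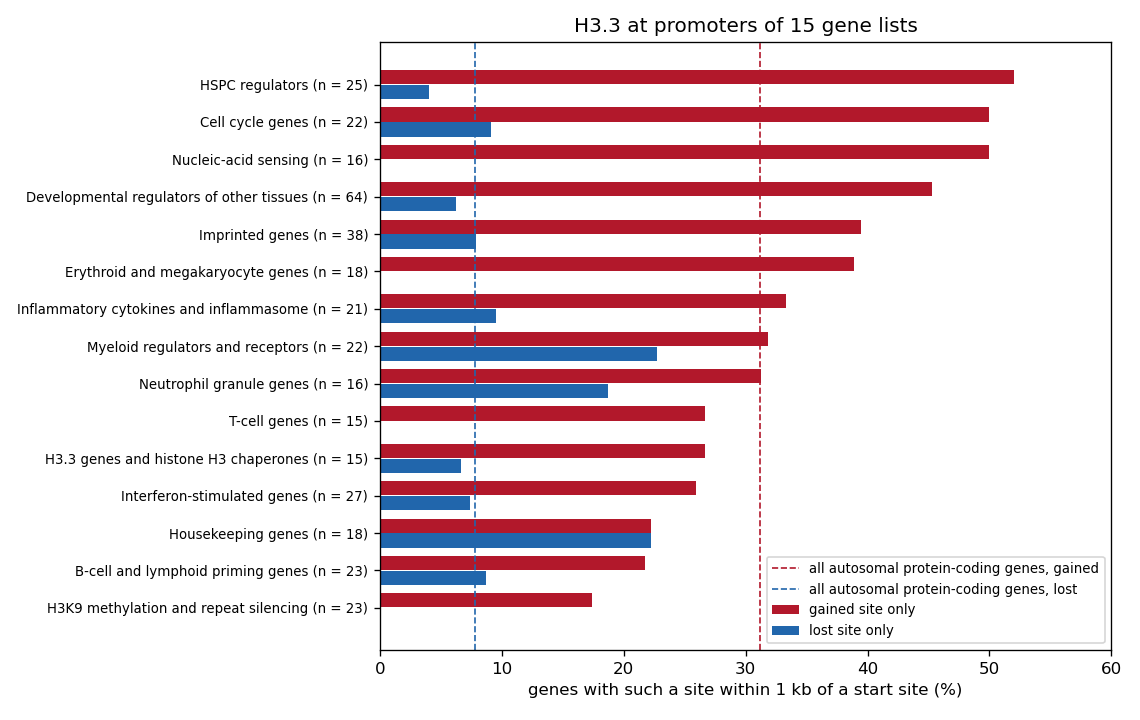
Percentage of genes in each of 15 lists with a gained site only (red) or a lost site only (blue) within 1 kb of a start site. Dashed lines mark the shares over all autosomal protein-coding genes, 31.2% gained and 7.79% lost. HSPC regulators, cell cycle genes and nucleic-acid sensors had gained shares from 50.0% to 52.0%, but with a 2-fold gap 12%, 27.3% and 18.8%, where all genes had 15.4%.

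Cell cycle genes had 11 gains and 2 losses among 22, or 50.0% and 9.09%, where all genes had 31.2% and 7.79%. With a 2-fold gap 6 were gained only, or 27.3%, where all genes had 15.4%. Losses ran from 1 to 4 with narrower and wider promoters. Rb1, the retinoblastoma gene, had 37.1 and 41.3 against 11.9 and 0, and Cdkn1a, which encodes the inhibitor p21, 38.7 and 69.3 against 12.6 and 0. The lost genes were the cyclins Ccne1, with 17.4 and 8.84 against 60.3 and 99.5, and Ccnd2, with 0 and 22.1 against 46.3 and 47.2. Of 64 regulators of other tissues 29 were gained, 4 lost and 3 both. The gained and lost shares were 45.3% and 6.25%, where all genes had 31.2% and 7.79%. With a 2-fold gap 26.6% were gained only, where all genes had 15.4%. Olig2, a factor of glia, had 30.8 and 31.7 against 7.71 and 2.62, and the lost Gata4, a heart and endoderm factor, 7.11 and 8.84 against 56.1 and 41.9.

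Imprinted genes had 15 gains, 3 losses and 1 gene with both among 38. The gained and lost shares were 39.5% and 7.89%, where all genes had 31.2% and 7.79%. With a 2-fold gap the gained share was 23.7%, where all genes had 15.4%. Gnas, a G-protein gene with several imprinted promoters, had 4 gained sites, the one with the widest gap at 73.4 and 66.3 against 20.3 and 5.24. Dlk1 and Mirg, neighbours in the chromosome 12 cluster, were lost, Dlk1 with 11.1 and 29.5 against 65.9 and 52.4. Dio3 in the same cluster was gained, with 81.3 and 59.7 against 30.2 and 18.3. Housekeeping genes, used as a comparison, had 4 gains, 4 losses and 2 with both among 18. Their gained and lost shares were each 22.2%. Actb was lost with 1.58 and 40.5 against 96.1 and 126.

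Among genes for H3.3 and its chaperones 4 of 15 were gained, 1 lost and 1 both. The gained and lost shares, 26.7% and 6.67%, lay near the 31.2% and 7.79% of all genes. H3f3a, which encodes H3.3, had 46.6 and 106 in Daxx-KO against 14.7 and 0 in WT. The Daxx promoter itself, outside the floxed exons, had 82.9 and 122 against 40.7 and 21.0. Mcm2, a helicase subunit that binds histones, was lost with 31.6 and 55.3 against 75.02 and 115. H3K9 methylation and repeat-silencing genes had 4 gains, no loss and 2 with both among 23. Their gained share was 17.4%, below the 31.2% of all genes. Ehmt2, the G9a methyltransferase gene, had 64.0 and 70.7 against 24.5 and 0.

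Several large gene families had smaller shares of gains. Of 1128 olfactory receptor genes 55 were gained and 73 lost, and of 327 vomeronasal receptor genes 9 and 14. The olfactory shares were 4.88% gained and 6.47% lost, and the vomeronasal shares 2.75% and 4.28%, where all genes had 31.2% and 7.79%. No promoter site with a direction was found at 87.9% of the olfactory and 93.0% of the vomeronasal genes, against 56.8% of all genes. Without sites holding a recurring 32-mer the olfactory counts were 17 and 45 and the vomeronasal counts 0 and 6. Immunoglobulin V segments had 7 gains and 21 losses among 218, but 0 and 3 without sites holding a recurring 32-mer. Counts in some families turned or emptied when sites with a recurring 32-mer were left out. T-cell receptor V segments went from 31 gains and 9 losses among 144 to 0 and 9. Processed pseudogenes went from 956 and 455 among 8924 to 181 and 226. Replication-dependent histone genes, which are near-copies of each other, went from 11 and 8 among 67 to 2 and 1. For lncRNA genes the gains stayed ahead, from 1757 and 766 to 1215 and 621 among 9421.

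Losses took a larger share in longer genes. Over gene bodies with 1 kb before the TSS, 77.9% of sites with a direction were gained in genes under 10 kb, 69.0% from 30 to 100 kb, 57.2% from 100 to 300 kb and 44.99% in longer genes. These classes were not matched for distance from the TSS, GC content or recurring sequence, so a part of gene length itself was not tested. Ptprn2, a receptor-type phosphatase gene of 791 kb, had 19 gained and 96 lost sites. Cacna1c, the L-type calcium channel gene of 609 kb, had 11 and 69. Cdh4, R-cadherin, had 28 and 74, Nav2 had 41 and 77, and Tenm4 had 22 and 61. Fgfr2 had the most losses, 162, beside 124 gains, within annotated bounds of 2961 kb.

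A few long genes ran the other way. Gse1 had 84 gained and 13 lost sites, Rptor, which encodes the Raptor subunit of mTORC1, had 54 and 7, and Rbfox3, the NeuN gene, had 61 and 17. C130026I21Rik, in the repeated Sp100 region of chromosome 1, had 53 and 2. Gm20388, a read-through annotation of 4435 kb on chromosome 8 that covers many genes and the tandem block above, had 849 and 139.

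Chromosomes differed in the same sense. In single-copy sites the share of gains was lowest on chromosomes 3, 1 and 6, at 35.1%, 35.96% and 37.0%, and highest on chromosomes 19 and 11, at 71.3% and 69.0%. The median GC of these sites was 46.8% on chromosome 3 and 51.3% on chromosome 11. In bins of 1 Mb with at least 30 sites with a direction, of which there were 1606, the median share was 51.7%. At the top stood a bin at 22 to 23 Mb of chromosome 12 with 67 gains and no loss, and bins of chromosome 14 at 3, 6 and 42 Mb with 42, 34 and 30 gains and no loss. A bin at 22 Mb of chromosome 7, full of Vmn1r pheromone receptor genes, had 48 and none. Their median sites had from 91.7% to 100% recurring 32-mers, a range where few losses could be called, as described above. At the bottom stood 194 to 195 Mb of chromosome 1, which holds Plxna2 and Cd34, with 5 gains and 64 losses, and the bins around Ank2 with 3 and 28 and around Epha4 with 4 and 30. The median site of these bins had no recurring 32-mer.

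The named sites were chosen by the gap with a pseudocount of 1, which favours sites where a group is at 0. WT replicate 1 was at 0 at 38.8% of sites with at least 90% recurring 32-mers and at 0.0024% of sites without any. The split of these sites by sequence is therefore a description and not a separate result. Of the 15 named gains, chosen by the gap between groups, 14 had at least 80% recurring 32-mers and 13 were at 0 in both WT libraries. Of the 15 named losses 10 had no recurring 32-mer and all 15 were at 0 in both Daxx-KO libraries. Each is named by the nearest protein-coding gene, and only Gm16867 and Nexn have the site at their own promoter. The gain beside Zfr, printed above, had 107 and 159 in Daxx-KO against 0.70 and 0 in WT. An intronic site nearest to Entpd4, an ectonucleotidase gene, had 92.4 and 56.0 against 0 and 0, and its 32-mers occurred 2 times in the reference (median). No fold is given for these sites, since a group was at or near 0.

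The widest distal losses lay in introns and between genes. The Esrrg site at chr1:187982501-187983350 had 0 and 0 in Daxx-KO against 73.6 and 73.3 in WT. Tenm2, a teneurin adhesion gene, had 0 and 0 against 71.5 and 68.1 at chr11:37147151-37148200. A promoter-class site nearest to Vcan, which encodes the matrix proteoglycan versican, had 0 and 0 against 63.8 and 86.4. At these sites both WT libraries were well above 0 and neither Daxx-KO library had a read.

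At the loci of Fbp1 and Fbp2, the neighbouring genes of the gluconeogenic enzyme fructose-1,6-bisphosphatase, 6 sites were listed. The Fbp1 promoter gained H3.3, with 56.9 and 53.1 in Daxx-KO against 16.1 and 34.1 in WT. A site 2943 bp upstream of the TSS was lost, with 6.32 and 5.90 against 58.2 and 73.3, and an H3K9me3 site there had 11.6 and 21.7 in Daxx-KO against 2.63 and 3.48 in WT. Within Fbp1 a pair of intronic sites was gained and an exonic one lost, with 0 and 26.5 against 48.4 and 120. Fbp2 had a single lost intronic site, with 0 and 22.8 against 43.5 and 41.9.

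At Spi1, 2 further sites were gained and 2 lost in introns. The lost pair, 3660 and 6085 bp from a TSS, had 48.2 and 39.8 against 82.0 and 73.3, and 49.8 and 57.5 against 70.8 and 178. The site 2285 bp downstream was gained, with 45.01 and 53.1 against 29.5 and 26.2, and overlapped an H3K27ac site with 386 and 325 in Daxx-KO against 153 and 159 in WT. That H3K27ac site also covers the first of the lost H3.3 sites. Neighbouring H3.3 sites of opposite direction thus shared 1 acetylated region.

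The other CUT&Tag tables of the same time point were read over the H3.3 sites. The Pu.1 libraries carry the same mouse labels as the H3.3 libraries, a number in 3 of them. Pu.1 went with H3.3: where a Pu.1 site with a direction overlapped a gained H3.3 site it was gained in 83.1% of pairs, and in 33.7% at lost H3.3 sites. In the Pu.1 table as a whole 54.1% of sites were gained and 44.0% lost. In single-copy sites the shares were 76.1% and 33.9%. All 13 chromosome-end sites overlapped a Pu.1 gain, among them chromosome 14 with 82729 and 116159 in Daxx-KO against 49.1 and 11584 in WT. WT replicate 1 was the lower WT library there in both readouts. The Pu.1 tables share its imbalance of depth, with 33.78 and 2.75 mean reads per window in WT and 11.35 and 11.99 in Daxx-KO.

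The active mark H3K27ac did not separate gained from lost H3.3 sites by much: 31.2% and 34.7% of overlapping sites were gained, where the whole table had 39.2% gained and 58.4% lost. H3K9me3 was mostly lost at gained H3.3 sites, while at lost H3.3 sites it stood near its own background. H3K9me3 was gained in 23.8% of overlaps at gained and 74.8% at lost H3.3 sites, with 78.6% gained and 21.0% lost in its whole table. In recurring DNA H3K9me3 was lost in 1436 and gained in 125 overlaps with gained H3.3 sites of at least 90% recurring 32-mers, and the few lost H3.3 sites there gave 3 and 2 overlaps, too few to compare. In single-copy DNA it was gained in 49.4% of overlaps at gained and 77.2% at lost H3.3 sites. At telomere-repeat sites 40 overlaps with gained H3.3 had lower and 8 higher H3K9me3.

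At 24 w.p.i. the direction of the H3.3 changes was near what the shares alone give. The 24-week table, whose labels give other mice, had 51.3% gained and 47.0% lost sites. Of the 3-week sites with a direction 29.3% overlapped a 24-week site with one. In 44129 such pairs 51.2% had the same direction (50.7 to 51.6), where the shares of gains in both tables alone would give 50.1%. At 60% GC or more 55.02% of sites gained at 3 weeks were gained at 24 weeks, and below 45% GC 50.2%. The 24-week sites of all pairs in these bins were gained in 54.98% and 49.8%. Gained telomere-repeat sites were gained again in 27 and lost in 37 pairs. Among the named sites Setd4, with 0 and 0 in Daxx-KO against 33.2 and 63.9 in WT at 24 weeks, and the gain beside Zfr, with 48.6 and 56.6 against 6.46 and 1.88, kept their direction. Of 43 named sites 7 overlapped a 24-week site with a direction, of which 5 had the same direction, the Adamts9 site the opposite one and a Spi1 site both.

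Short sequence motifs largely followed base composition. Words were searched on both strands, and their shares were set beside 600-bp tiles of the autosomes matched in GC. The GC box GGGCGG occurred in 19.7% of gained and 7.24% of lost sites, against 18.3% and 8.95% of tiles. The GATA word AGATAAG occurred in 5.09% and 8.15%, against 6.22% and 7.55%, and the Pu.1 word GAGGAAGT in 3.77% and 4.56%, against 4.34% and 4.27%. The AP-1 word TGACTCA occurred in 8.86% and 11.3%, against 9.68% and 10.1%. A match is a description of sequence and not a bound site, and listed sites are 600 bp or longer.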

How the data were processed

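H3.3 CUT&Tag sites from Lineage-negative, c-Kit-positive bone-marrow HSPCs of 2 WT and 2 Daxx-KO mice at 3 w.p.i. were taken as deposited. Per the submitters' processing notes in the labels, the authors used CASAVA 1.8.4, cutadapt 1.13, STAR 2.5.3 and bedtools with mm10. Per the file headers they then called sites with diffReps 1.55.6 in 600-bp windows moved by 50 bp (fragment size 100, negative binomial test, window p-value cutoff 0.0001). The deposited values are normalised counts, that is reads divided by a constant per library, joined for the 2 replicates of a group. The authors' own fold changes and p-values were not used.

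Direction was recomputed from the 4 values. Log2 values used a pseudocount of 1. Places and genes came from GENCODE M21 on mm10, base composition, masking and recurring 32-mers from the mm10 reference, and promoter sequences from RefSeq. Overlaps needed 1 base. No count model was fitted and no test was run across sites, since whole reads could not be recovered and the table holds only sites already selected by a test. Trimmed-mean factors were computed from values multiplied by the constants. Functions were tested on simulated data, with Python 3.11.15, numpy 2.4.6, pandas 2.3.3 and scipy 1.17.1. Named sites were the 6 promoter and 6 distal sites per direction with the widest gap, at most 1 per nearest gene and under 50% masked, and the 3 per direction at 90% masked or more; the 8 genes with most lost and most gained sites; up to 4 members per direction in each list; Fbp1, Fbp2, Daxx and Spi1; and the 5 highest and 5 lowest 1-Mb bins. Kit, Fos, Dio3, the list members given by name alone and the high-level sites said to be so were chosen after their values were seen. Members and lists were chosen with earlier results of these data known. Replicates are separately labelled samples; where nothing else is said the spread between them may be technical, and depth (mean reads per window from 3.06 to 22.88) limits low values. Alternatives were another gap, scaling, site and promoter definition, each library left out and a replicate block. A gene and some sequences are not reported here.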

Additional observations from a re-analysis of the deposited data

Results flagged for a closer look

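At a pair of named sites an overlapping H3.3 site at 24 w.p.i. went the opposite way in every library. The Spi1 site of the pair also overlapped a 24-week site that kept the direction. At the Adamts9 site, lost at 3 weeks with 0 and 0 in Daxx-KO against 63.1 and 62.9 in WT, an overlapping 24-week site had 43.1 and 29.4 in Daxx-KO against 0 and 11.3 in WT, a log2 change of 2.49. In the Spi1 intron, the site starting at 91098951 on chromosome 2 was gained at 3 weeks with 58.4 and 57.5 against 33.7 and 5.24, and an overlapping 24-week site had 0 and 0 against 33.2 and 51.7, a log2 change of -5.44 whose size is set by the pseudocount of 1, since Daxx-KO was at 0. A second 24-week site that overlaps the same Spi1 region was gained, with 139 and 31.7 against 8.30 and 26.3. The difference between the time points was not tested, and the mice at each were different.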

How the results depend on the processing

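Asking for a 2-fold gap left 33679 gained and 37152 lost sites, a gained share of 66.4% at promoters and 44.5% at distal sites, and 3213 genes with a gained promoter site only. Trimmed-mean factors gave gained shares of 71.4% and 53.2% at promoter and distal sites, scaling by mean reads per window 79.8% and 61.8%, joining sites within 1 kb 72.2% and 54.3%, all chromosomes 74.6% and 56.8%, promoters of 250 bp 78.2% and 56.5%, and promoters of 3 kb 69.5% and 54.4%. The values as reported over all sites were 73.8% and 55.8%. Sites without a recurring 32-mer gave 41566 gained sites and shares of 70.97% at promoter, 70.5% at exon, 46.3% at intron, 37.9% at intergenic and 45.2% at distal sites. Sites under 50% masked gave 53.3% at introns and 46.2% between genes. With promoters of 250 bp 1079 genes had a lost site only. Leaving out each library in turn gave 82063 to 82928 gained and 57649 to 58789 lost sites, and shares of 73.2% to 74.1% at promoter and 55.4% to 56.1% at distal sites. The counts could only rise, since fewer libraries loosen the rule, and so could not test whether a result rests on a single library. Direction by means and a minimum mean of 20 changed no count by over 1.5 times. The choices by depth, by recurring 32-mers and without sites of 1000 or more were added after seeing the data.

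With replicates paired by number (the replicate block) 82021 sites were gained and 57821 lost. The numbers do not pair the samples by any label, and the difference between replicates 1 and 2 correlated at 0.0926 across sites between the genotypes. Of 360 list counts under alternatives 48 moved by over 1.5 times. Of the named sites' log2 changes, 29 moved by more than the replicate spread with a pseudocount of 0.5 and 30 with 4, and none changed sign. Count models, planned only if whole reads could be recovered, were not run: multiplied by its constant, 34.6% of values in Daxx-KO replicate 1 came within 0.1 of a whole number, and the table holds only sites selected by a test. Depth limits what can be said at a level of 0 in WT replicate 2.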
